A study of Mus musculus with 2 samples.

Results

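Interferon-stimulated antiviral genes were followed in bone marrow neutrophils, sorted from animals of a group labelled Jdp2 KO and a group labelled Jdp2 WT. The set was drawn up by gene name, with earlier results of these data known, and held 44 genes, without the guanylate-binding protein, immunity-related GTPase, Irf and Stat families. Of these, 41 had at least 1 probe set that the platform annotation ties to a single gene symbol, and they held 74 of the 34945 such probe sets on the array. Jdp2 encodes a leucine-zipper repressor of the AP-1 and ATF group. Both groups had the strain label C57BL/6 /129/J mixed background, and the cells had been sorted as CD11b+, Ly6G+ and low in Ly6C. Each genotype was represented by 1 Affymetrix array of labelled total RNA, so differences between animals could not be separated from differences between genotypes, no value carries a test, and precision is limited by the number of arrays. The sources used here do not give the age or sex of the mice, whether RNA of several mice was pooled, or which part of Jdp2 was removed.

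Type I interferons bind a receptor whose kinases switch on transcription factors. These bind the interferon-stimulated response element (ISRE) in the promoters of a large group of genes, which sense viral nucleic acid, block its translation, cut it or hold virus particles at membranes. Type II interferon acts on another element, the gamma-activated site (GAS). Neutrophils respond to both kinds of interferon, and many of these genes are transcribed at some level without infection.

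Patterns of both elements were looked for in the RefSeq promoter windows of build GRCm38.p6, which run from 250 bases before a transcript start to 50 bases after it. Of the 44 genes, 34 had a window. The core of the ISRE, GAAANNGAAA on either strand, lay in the windows of 14 of the 34, or 41.2%, against 3.99% of the 27025 genes with a window. The GAS pattern TTCNNNGAA, which reads the same on both strands, lay in 11 of the 34, or 32.4%, against 9.55% of all. The patterns occurred together in 4 genes and overlapped in Bst2 and Ifitm3. The stretches below show the ISRE core in 9 of the 14 genes with 10 bases on each side, or up to the end of the window. They are written 5′ to 3′ along the strand of the gene, with the matched bases in capitals.
Ifit1, chr19:34640775-34640823, plus strand: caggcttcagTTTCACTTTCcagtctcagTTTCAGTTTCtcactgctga
Ifit3, chr19:34583363-34583426, plus strand: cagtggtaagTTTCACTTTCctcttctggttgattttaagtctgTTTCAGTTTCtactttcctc
Isg15, chr4:156200865-156200906, minus strand: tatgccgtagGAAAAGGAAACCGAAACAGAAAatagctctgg
Oas1a, chr5:120907520-120907555, minus strand: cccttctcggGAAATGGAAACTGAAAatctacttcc
Oas1g, chr5:120887606-120887641, minus strand: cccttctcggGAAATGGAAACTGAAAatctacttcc
Oas3, chr5:120777715-120777744, minus strand: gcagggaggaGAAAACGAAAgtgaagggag
Rsad2, chr12:26456553-26456582, minus strand: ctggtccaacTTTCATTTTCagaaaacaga
Eif2ak2, chr17:78882535-78882564, minus strand: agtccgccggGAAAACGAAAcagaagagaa
Ddx58, chr4:40239804-40239833, minus strand: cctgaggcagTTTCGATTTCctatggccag

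Oas1a and Oas1g carried the same stretch. Isg15 had 3 overlapping matches, and 7 of the 14 genes had more than 1 match in a window. Counted from the transcript start, the matches began between positions -156 and 32. In Eif2ak2 the match began 18 bases and in Ddx58 2 bases after it. The other 5 genes with a match were Bst2, Ifih1, Ifitm2, Ifitm3 and Trim30a.

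**Figure D1:**
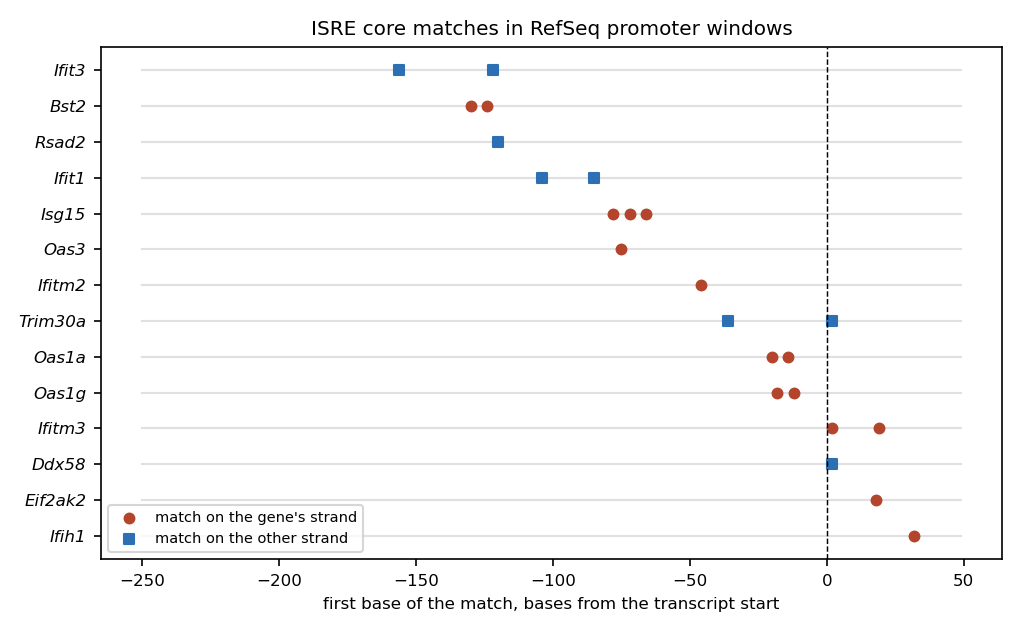
Each row is 1 of the 14 antiviral genes with an ISRE core in a RefSeq window, the horizontal axis gives the first base of each match in bases from the transcript start (dashed line), circles mark matches on the strand of the gene and squares those on the other strand. In 10 genes at least 1 match lies within 150 bases before the start, and Ifitm3, Ddx58, Eif2ak2 and Ifih1 have matches only at or after it.

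Values below are log2 signals, each gene was read from its probe set with the highest mean, and a difference is the array labelled KO minus the array labelled WT. The level filter kept a gene if its higher value was no less than the median of all probe sets on that array, 5.67 for KO and 5.65 for WT. This left 39 of the 41 genes, and 11168 genes in all. Mx2 and Lgals3bp did not pass. Jdp2 itself read 12.38 on the KO array and 11.997 on the WT array with the stronger of its 2 probe sets and 5.40 and 5.24 with the other, so the labels could not be checked by the targeted gene. Of the 10 neutrophil markers with a probe set, 4 were above 0 and 6 below, and none differed by 0.5 or more. The largest differences were those of Itgam, which encodes the sort marker CD11b, at -0.43, and Csf3r at -0.30. S100a8, Camp and Ltf differed by 0.17, -0.04 and -0.15, with signals near the array maxima, where differences can be compressed. Ly6g, a marker used in the sort, had no probe set of its own here.

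No antiviral gene that passed was 2-fold higher or lower, a difference of 1, whereas 3.06% of all 11168 genes were higher and 2.33% lower by that size. A difference of at least 0.5, or 1.41-fold, was reached in the higher direction by 5 of 39 genes, or 12.8%, close to the 10.4% of all genes. These were Ifit1, Eif2ak2, Xaf1, Ifit2 and Herc6. None of the 39 was lower by 0.5, a size reached by 11.6% of all genes. Differences narrow as signal rises, and most antiviral genes gave strong signals. Among the 2572 genes whose mean level lay between the quartiles of the antiviral genes, 9.68 and 11.70, a background chosen after those levels were seen, 2.49% were higher and 3.50% lower by 0.5. The antiviral genes in that range numbered 19, of which 3 were higher and none lower by that size.

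The antiviral genes had a median difference of 0.10, against -0.04 for all genes that passed. Of the 39, 28 were above 0 (71.8%), compared with 44.8% of all genes and 40.7% of the genes in the same range of level. With both values required to reach the array medians, 27 of 38 were above 0, against 44.1% of all genes so filtered. The differences of the 39 genes ran from -0.23 for Adar to 0.75 for Ifit1, and 26 of them lay within 0.25 of 0. This is a description of 1 pair of arrays, which cannot show whether another pair of arrays would give the same shift.

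**Figure D2:**
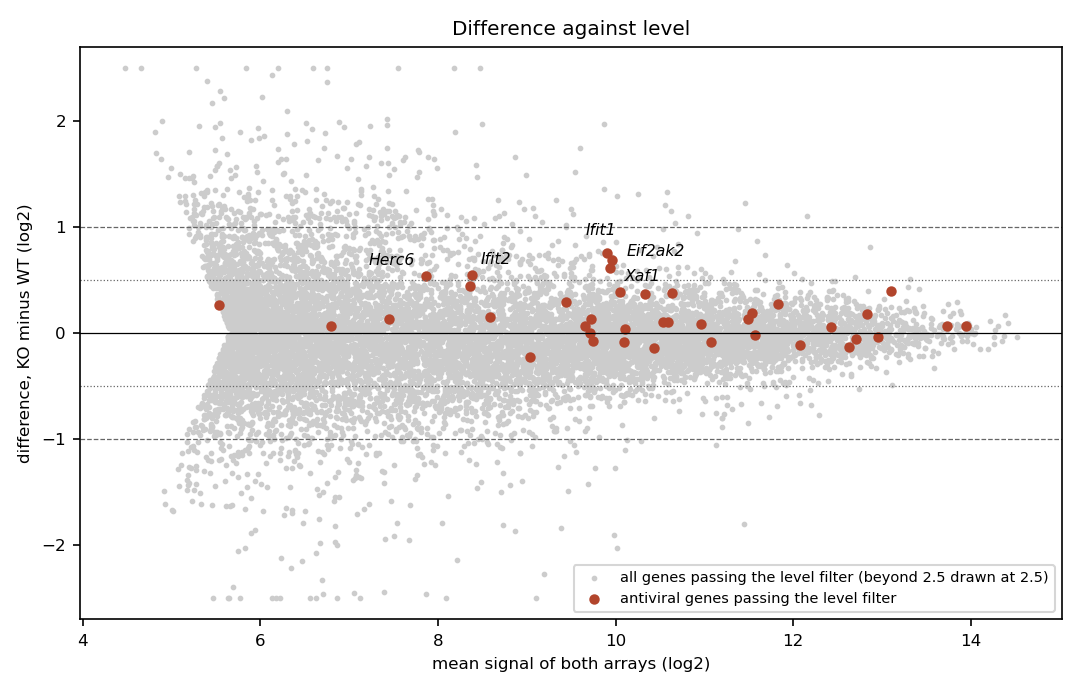
The horizontal axis is the mean log2 signal of both arrays and the vertical axis the log2 difference, KO minus WT; grey points are the 11168 genes that passed the level filter (values past 2.5 are drawn at 2.5), red points the 39 antiviral genes, dotted lines mark 0.5 and dashed lines 1 in either direction. The spread of all genes narrows to the right, and the red points lie between -0.23 and 0.75.

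**Figure D3:**
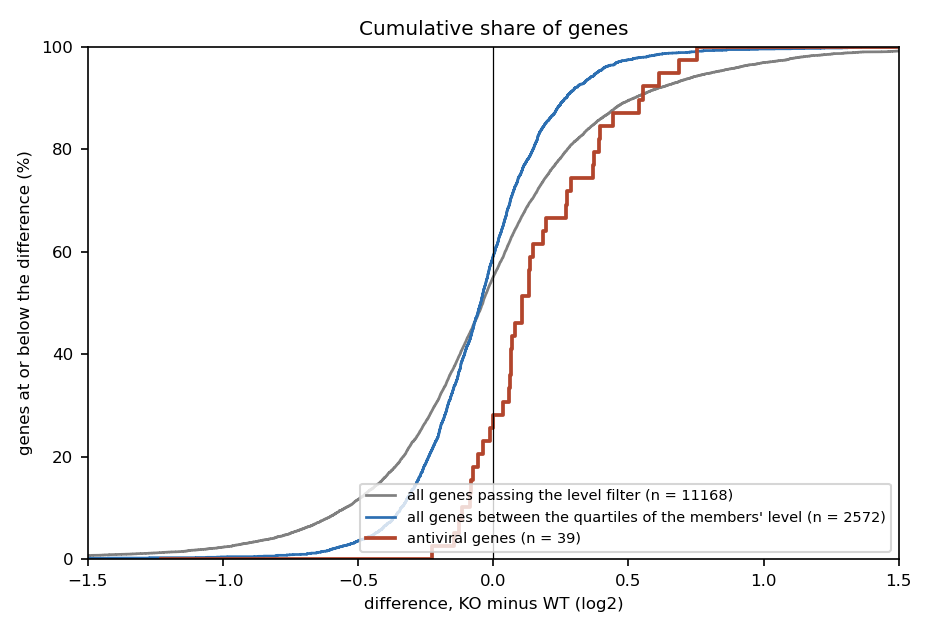
The curves give the percentage of genes at or below each log2 difference, KO minus WT, for the 39 antiviral genes (red), all 11168 genes (grey) and the 2572 genes between the quartiles of the antiviral genes' level (blue). The red curve crosses 50% at 0.10, the grey at -0.04 and the blue at -0.05.

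The IFIT family and PKR hinder viral translation. All 4 genes of this group were higher on the KO array, with a median difference of 0.62, while 44.8% of all genes were above 0. The gene groups used from here on were drawn up with earlier results of these data known, so their medians are not independent of them. Ifit1, whose protein binds viral RNA that lacks the cap mark of the host, read 10.28 on the KO array and 9.53 on the WT array, a difference of 0.75 or 1.69-fold. Ifit2, of the same family, read 8.66 and 8.11, a difference of 0.55 or 1.47-fold. Ifit3, the third family member measured, read 10.82 and 10.45, a difference of 0.37. Each IFIT gene was measured by 1 probe set.

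Eif2ak2 encodes PKR, the kinase that halts translation when it meets double-stranded RNA. It read 10.30 on the KO array and 9.61 on the WT array with its strongest probe set, a difference of 0.69 or 1.61-fold. The other probe sets read 9.84 against 9.41 and 8.49 against 7.63. All 3 were higher on the KO array, by 0.43 to 0.86.

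Genes of the ISG15 system, which tags proteins with a ubiquitin-like modifier, were uneven. Herc6, the ligase that attaches ISG15 in mice, read 8.14 on the KO array and 7.60 on the WT array, a difference of 0.54 or 1.45-fold. Its 4 probe sets were all higher on the KO array, by 0.24 to 1.27, and the one at 1.27 read 7.38 against 6.11. Usp18 removes ISG15 and also damps the type I interferon receptor. It read 10.25 and 9.86, a difference of 0.39. Trim25, a ubiquitin ligase that acts on RIG-I, read 11.56 and 11.57, a difference of -0.01 that turned to 0.004 after removal of the trend with level and was above 0 after quantile normalisation too. Its other probe sets differed by 0.02 and, at 7.65 against 7.31, by 0.33. Isg15 has no value, because its probe set carries the symbol of a second gene as well.

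The sensors of viral nucleic acid lay close to 0 apart from Zbp1. Ddx58 (RIG-I) read 9.71 on both arrays, and its difference of -0.001 became positive after quantile normalisation or removal of the trend with level. Ifih1 (MDA5), the sensor of long double-stranded RNA, read 8.66 on the KO array and 8.51 on the WT array, a difference of 0.15. Dhx58 (LGP2), which modulates both, read 9.71 and 9.78, a difference of -0.08.

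Zbp1, a sensor of Z-form nucleic acid that can start necroptosis, had probe sets that went different ways. The stronger read 8.58 on the KO array and 8.14 on the WT array, a difference of 0.44, and the other read 7.73 and 7.82, a difference of -0.09. No direction can be given for this gene.

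The OAS family makes the second messenger that activates RNase L, and only Oas1a among its measured genes differed by more than 0.2. Oas1a read 10.52 on the KO array and 10.15 on the WT array, a difference of 0.37. Oas2 read 10.12 and 10.08, a difference of 0.04. Oas3, whose product senses long double-stranded RNA, read 10.36 and 10.50, a difference of -0.15. The OAS-like genes Oasl2 and Oasl1 differed by 0.10 and 0.13. Oas1g was not measured by a probe set of its own. The Oas1 genes are close paralogs, and how far the Oas1a probe set also reads other copies was not tested.

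The IFITM proteins block fusion of virus with the cell, and all 4 genes were above 0 with a median difference of 0.13. Ifitm1 read 13.30 on the KO array and 12.91 on the WT array, a difference of 0.40. Ifitm2 differed by 0.18. Ifitm3 read 13.76 and 13.70, and Ifitm6 read 13.98 and 13.91, differences of 0.07 each. The signals of Ifitm3 and Ifitm6 lay near the array maxima of 14.56 and 14.54, where differences can be compressed. The IFITM genes are similar in sequence, and whether their probe sets share signal was not tested.

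Rsad2 encodes viperin, which makes a chain-terminating nucleotide. It read 12.45 on the KO array and 12.39 on the WT array, a difference of 0.06. The other probe sets differed by -0.06 and, at 5.91 against 6.82, by -0.91. Bst2 encodes tetherin, which holds budding virus on the cell, and read 6.82 and 6.76. Mx1, a GTPase against influenza virus, read 5.67 and 5.41. It passed the filter by a narrow margin and through the KO array alone. Mx2 read 4.59 and 4.04, under the median of both arrays. The reference gene table lists Mx1 and Mx2 as transcribed pseudogenes, as many inbred strains carry defective copies.

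Enzymes that act on nucleotides and RNA were the one group with a median below 0, at -0.11. Of the 4 genes in this group, 3 were lower on the KO array. Lower values were common, since 44.8% of all genes were above 0 and their median was -0.04. Adar, the deaminase that edits double-stranded RNA and keeps the host's own RNA from the sensors, read 8.92 on the KO array and 9.15 on the WT array, a difference of -0.23. All 3 of its probe sets were lower, the others by 0.24 and 0.45. Samhd1 breaks down the nucleotides that viruses need. It read 12.56 and 12.69, a difference of -0.13, and its 3 passing probe sets were all lower.

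Cmpk2 encodes a mitochondrial nucleotide kinase, and its probe sets disagreed in size. The stronger read 11.03 on the KO array and 11.11 on the WT array, a difference of -0.09. The other read 7.67 and 9.08, a difference of -1.41 and the lowest of any antiviral probe set that passed. Isg20, an exonuclease, read 9.58 and 9.29, a difference of 0.29.

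The remaining groups held small differences and 1 larger one. Xaf1, whose product counters the caspase inhibitor XIAP, read 10.24 on the KO array and 9.63 on the WT array, a difference of 0.61 or 1.53-fold. Its second probe set lay under the median of both arrays, at 3.11 and 3.66. Dtx3l and Parp9 form a ubiquitin ligase complex. Dtx3l differed by 0.27 and by 0.25 with its other probe set, Parp9 by 0.06 and Parp14 by 0.14. Trim30a, a restraint on inflammatory signalling, differed by -0.06 and by 0.20 with its other probe set.

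The immunoproteasome subunits Psmb8 and Psmb9 and the peptide transporter gene Tap1, which feed class I antigen presentation, differed by 0.10, 0.08 and -0.08. The other passing probe set of Tap1 differed by 0.08. Rtp4 differed by 0.19, Ifi35 by 0.13, Samd9l by -0.04 and Ifi27 by -0.12. Lgals3bp, at 5.22 and 5.28, lay under both medians. Ifi44 had no probe set of its own.

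**Figure D4:**
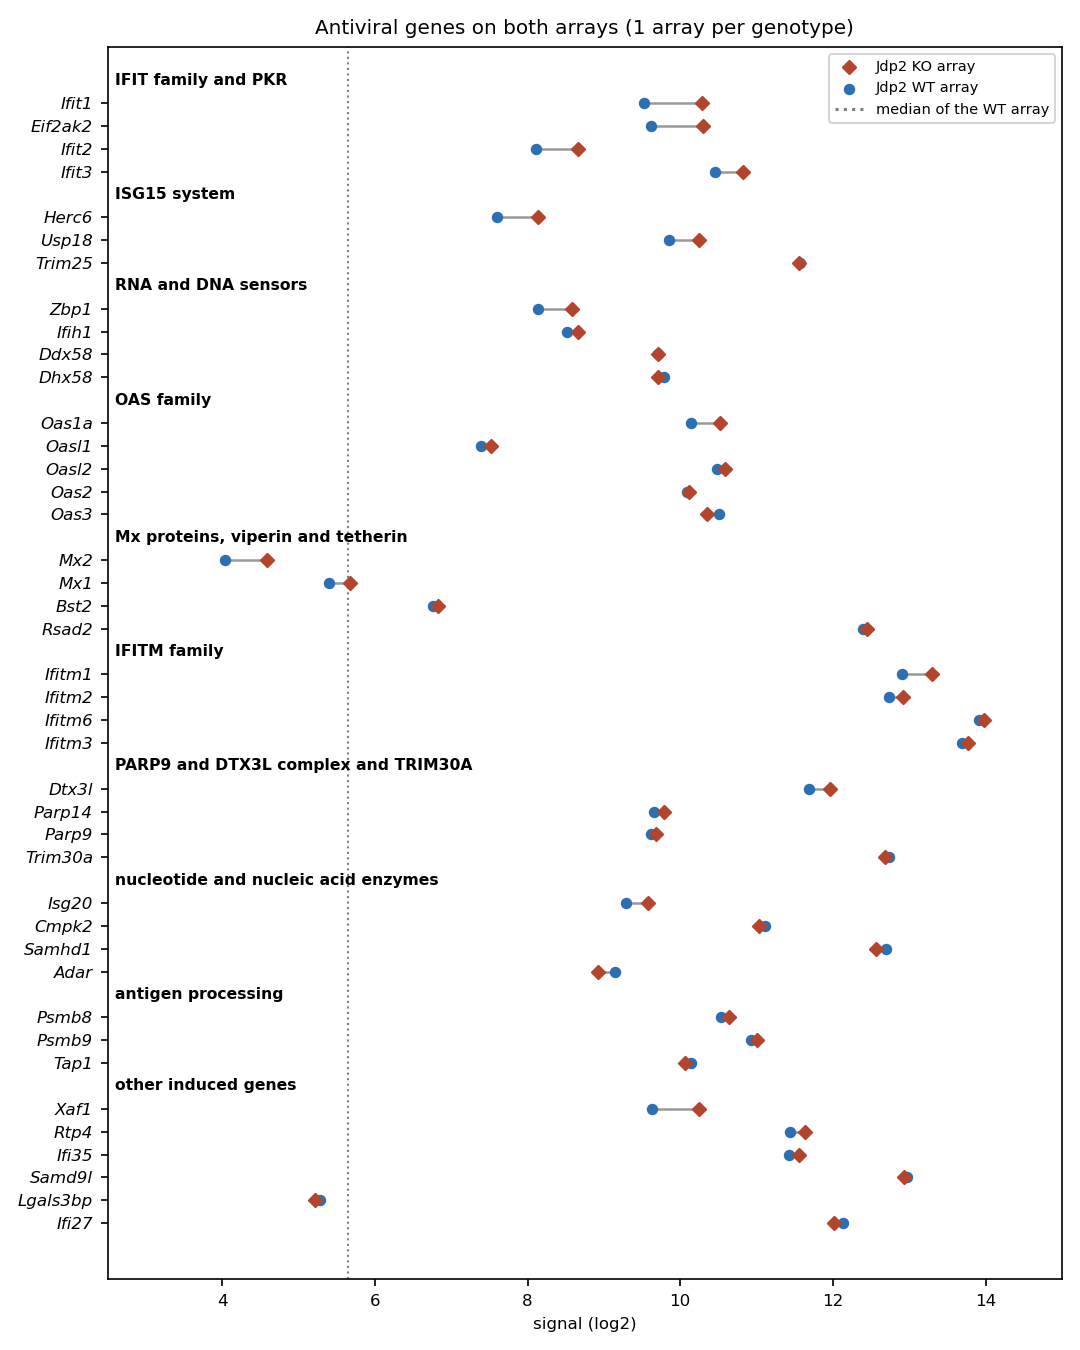
Log2 signal of each of the 41 measured antiviral genes, grouped by role, on the KO array (red diamonds) and the WT array (blue circles), with the WT array's median as a dotted line; there is 1 array per genotype and hence no error bar. The widest gaps among genes above the line are those of Ifit1 (0.75), Eif2ak2 (0.69) and Xaf1 (0.61).

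Of the 39 genes, 16 had more than 1 passing probe set. In 6 of them all were higher on the KO array, in 5 all were lower, and in 5 they had both signs. The median SD over probe sets of a gene was 0.13 in these 16 genes. Over all 64 passing antiviral probe sets, 42 were above 0 (65.6%), against 43.6% of all passing probe sets with 1 symbol.

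**Figure D5:**
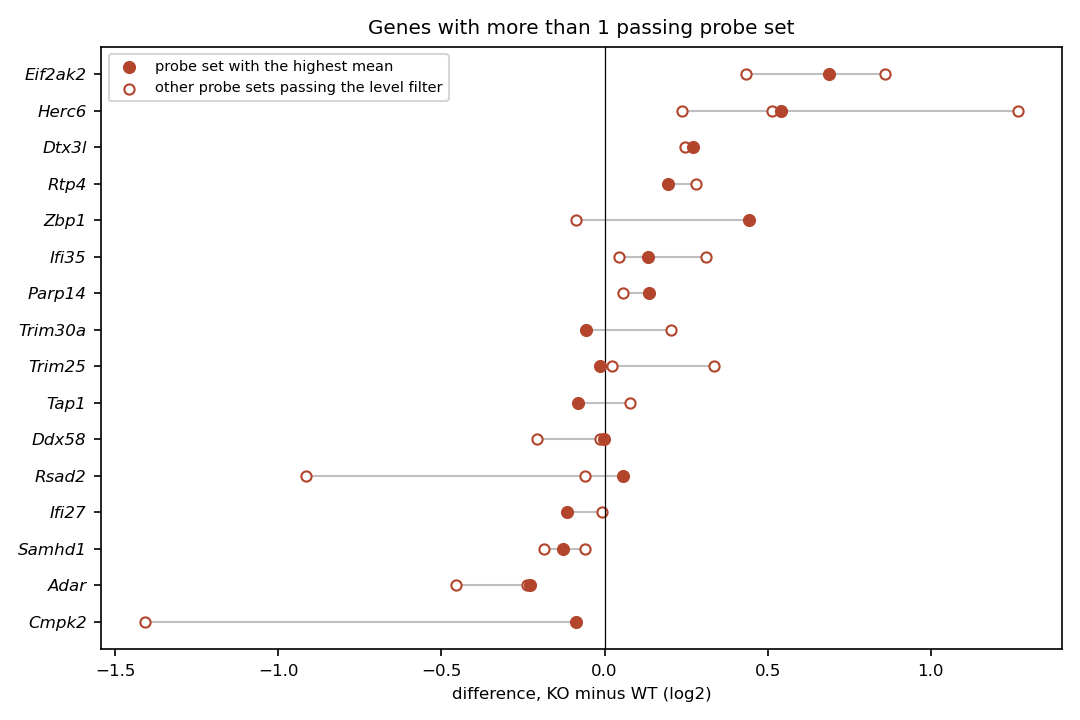
The horizontal axis is the log2 difference, KO minus WT, and each row is 1 of the 16 antiviral genes with more than 1 passing probe set; the filled point is the probe set with the highest mean and open points are the others. Eif2ak2 and Herc6 lie wholly above 0, Adar and Samhd1 wholly below it, and the widest ranges are those of Cmpk2 (-1.41 to -0.09), Herc6 (0.24 to 1.27) and Rsad2 (-0.91 to 0.06).

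Genes with and without an exact match to the ISRE core in a window had similar differences. The 12 passing genes with the core had a median difference of 0.11 and 9 of them were above 0. The 18 passing genes with a window and no core had a median of 0.10, and 12 were above 0. Ifit1 and Eif2ak2 were in the first group, and Ifit2, Xaf1 and Herc6 in the second. Over all genes that passed, the median was -0.004 for the 339 with the core and -0.04 for the 8710 without it. Only the exact pattern within the windows was counted. A gene without it may hold a variant of the element or one outside the window, so this split cannot show whether the element matters.

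Several antiviral genes lie side by side in the genome, and 9 pairs had no other gene between them in the reference gene table. Ifit2 and Ifit3 were such a pair, at 0.55 and 0.37, with Ifit1 (0.75) beyond 4 other genes. Rsad2 and Cmpk2 were another, at 0.06 and -0.09. Tap1 lay between Psmb9 and Psmb8, and these 3 lay between -0.08 and 0.10. In the Oas cluster, Oas2 (0.04) and Oas3 (-0.15) were direct neighbours.

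Of 31 genes upstream of this programme that passed, 2 were higher and 1 lower by 0.5 or more, against 10.4% and 11.6% of all genes. These 3 were the sensor adaptor and receptor genes Tlr7, Sting1 and Ticam1. All 9 interferon receptor and kinase genes passed, with a median difference of -0.11, 5 of them below 0. Over all genes the median was -0.04, and 44.8% were above 0. Ifnar1, a subunit of the type I receptor, read 9.996 on the KO array and 10.35 on the WT array, a difference of -0.35. Its other probe set differed by 0.05, so no direction can be given for this gene. The kinase genes Jak2 and Tyk2 differed by 0.34 and 0.32, and by 0.45 and 0.08 with their other probe sets. Of the 6 transducer genes with a value, Stat2 differed by 0.44, Irf1 by -0.29, Irf9 by -0.18 and Irf7 by 0.02. The other Stat2 probe set differed by 0.09. Socs3, an inhibitor of the pathway, differed by -0.37. Of 9 interferon genes with a probe set, 7 lay under the median on both arrays, including Ifnb1 (5.02 and 4.19) and Ifng (3.51 and 3.32). Ifna1 and Ifna5, which belong to a family of near-identical genes, differed by -0.43 and 0.30. Of the 9 sensor adaptor and kinase genes that passed, Tlr7, a receptor for single-stranded RNA, read 10.13 against 9.21, a difference of 0.91. Sting1, the adaptor of the DNA sensor cGAS, read 7.36 against 6.54, a difference of 0.82. Ticam1, the adaptor of Tlr3, read 5.66 against 6.51, a difference of -0.85.

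Markers of other cells differed between the same arrays. Of all genes that passed, 3.06% were at least 2-fold higher on the KO array. All 11 monocyte and macrophage markers with a probe set were higher there, 8 of them at least 2-fold, with a median difference of 1.24. Their summed signal on a linear scale was 8001 on the KO array and 5390 on the WT array. The smallest of these differences were those of Csf1r (0.27), Cx3cr1 (0.25) and Cd68 (0.23). On the WT array F13a1 (4.92), Ms4a6c (4.78), C1qa (4.88), Fcgr1 (5.23) and, narrowly, Cx3cr1 (5.64) lay under the median, so their folds are set against weak signals. Among weaker probe sets, Cx3cr1 had one at -0.69, Fcgr1 one at -0.47 and Ccr2 one at -0.02. The weaker probe sets of Csf1r, C1qb and Ms4a6c were all higher on the KO array. The 4 promyelocyte genes Mpo, Elane, Prtn3 and Ctsg were all at least 2-fold higher, with a summed linear signal of 3223 against 152. On the WT array Ctsg (4.02) and Prtn3 (4.41) lay under the median, so they passed the filter through the KO array alone. Elane (5.75) and Mpo (5.93) lay little above it there, so these folds too are set against weak signals. The strongest signal on the KO array was that of Mpo (11.02). Of 6 plasmacytoid dendritic cell markers, 4 passed, with a summed linear signal of 710 against 606, while Siglech and Irf8 lay under the median of both arrays. Of 5 B cell markers with a probe set, 2 passed, and of 7 T and NK cell markers 4 passed, with summed linear signals of 436 against 462 and 1510 against 1219. These sums join markers that went different ways. Cd79a differed by 0.85 and Ebf1 by -0.31. Nkg7 (0.70), Cd3d (0.30) and Cd3e (0.25) were higher on the KO array, and Cd8a (-0.66) was lower. Only Car2 of 4 erythroid markers passed, at -1.29. The part of these cells in the differences of the antiviral genes was not tested, and in RNA of a whole sort a change in the number of cells of a type cannot be told apart from a change in RNA per cell.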

How the data were processed

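RNA of sorted cells was measured on 1 array per genotype. The deposited values are log2 probe set summaries made by the authors with RMA, per the submitters' processing notes; the sources used here do not give its version, background step or normalisation. Sorted values of both arrays differed by at most 0.117. RMA gives no detection call, so weak signals hold background.

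Of 45101 probe sets, 64 controls were left out. Of the other 45037, 34945 carried 1 symbol, updated by Entrez identifier against the GRCm38.p6 gene table (34741 matched), 932 carried several and 9160 were not listed. Each of 18193 genes was read from its probe set with the highest mean. All measured members were named. The members and lists were chosen with earlier results of these data known, so the shift of the set is not independent of them. Sizes of 1 and 0.5 served for counting, since 1 array per group allows no test. Promoter sequences came from RefSeq. The calculation was checked on simulated arrays with little noise and known shifts past the sizes counted. Such a check does not show how reliable differences in these data are. Python 3.11.15, pandas 2.3.3 and statsmodels 0.14.6 (loess span 0.3) were used. Alternatives were other level filters, other scalings and other choices of probe set.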

Additional observations from a re-analysis of the deposited data

How the results depend on the processing

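The counts of antiviral genes past 2-fold were 0 in both directions under the 7 alternatives (no level filter, both values filtered, centring, quantile normalisation, removal of the trend with level, the mean of all passing probe sets, and no shared probe sets). The count higher by 0.5 was 5 or 6. The count lower by 0.5 was 0 except with the mean of all passing probe sets, which gave 1, Cmpk2 at -0.75, through its weaker probe set. The median difference stayed between 0.09 and 0.15, above that of all genes by 0.13 to 0.17. Of 264 values of single genes under an alternative, 260 moved by less than 0.22. That is the median probe set SD over all genes and is larger than the 0.13 of the antiviral genes. The others were Rsad2 (-0.31 with the mean), Cmpk2, and Zbp1 (0.18 with the mean and -0.09 without shared probe sets). Many of the 264 values could move little or not at all, so their count does not show how reliable single genes are. The level filters read the same probe sets again, and centring shifted all genes alike. Only 16 of the 39 genes had more than 1 passing probe set to average. The sensors' median was -0.04 without shared probe sets. Signs of Ddx58 and Trim25 flipped under 2 other scalings each. No paired analysis was possible because each genotype has 1 array.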
